A study of Parasteatoda tepidariorum with 2 samples.

Results

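The nuclei described here carried transcripts of *Pt-hh* (LOC107451809), the *hedgehog* gene of the common house spider *Parasteatoda tepidariorum*, at late stage 5, when the embryo is a germ disc. They were chosen on their counts: at least 3 *Pt-hh* molecules, 0 molecules of *Pt-msx1* (LOC107447678, a homeobox gene of the disc centre) and at most 4 molecules of LOC107451427. The paper lists LOC107451427 for the endoderm and the cumulus mesenchymal cells at late stage 5. At stage 7 it lists that gene for endoderm and extraembryonic cells. The rule found 812 of 4820 late stage-5 nuclei (16.8%, exact binomial 95% interval 15.8% to 17.9%), called hh nuclei below, of 11924 filtered barcodes in the whole series. They were set against the 3408 nuclei with 0 *Pt-hh* molecules (70.7%). The study sequenced RNA of single nuclei from wild-type germ-band embryos at stage 7 and of single cells from the same stage, and analysed them with late stage-5 nuclei that an earlier study had collected. All nuclei of a library came from whole embryos pooled before isolation, with no treatment. The late stage-5 nuclei formed 1 library, so no difference here has a replicate check and none was tested.

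Hedgehog is a secreted signal. It binds the receptor Patched, which releases Smoothened, and the zinc finger factor Cubitus interruptus (Gli in vertebrates) then acts on target genes, often including *patched* itself. In the spider germ disc the rim becomes the anterior end and the centre the posterior end of the body axis, and *Pt-hh* is known as a gene of the rim. The peripheral mesoderm (pMES) also arises near the rim.

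A late stage-5 nucleus held 2382 to 13529 molecules (median 5413) and 1500 to 4499 genes. The median depth was 5517.5 molecules in hh nuclei and 5327.5 in nuclei with 0 *Pt-hh*, with a median of 2589 and 2546 genes. After every nucleus was thinned to 2000 molecules these medians were 1337 and 1339 genes. Of the late stage-5 barcodes, 33 also occurred in the stage-7 nuclei and 5 in the stage-7 cells. Doublets were limited only by the upper molecule count that the authors set.

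The hh nuclei held 17491 of the 18785 *Pt-hh* molecules in the library (93.1%). A nucleus had 3 at the lowest, 15.5 at the median and 123 at the highest, with quartiles of 7 and 29.25, and 339 nuclei had at least 20. The summed level was 38.5 molecules per 10000. Levels carry exact Poisson and shares exact binomial 95% intervals where one is given, and these cover counting error only, since nuclei of a library are not replicates. Of 866 nuclei with at least 3 *Pt-hh*, 22 were left out for *Pt-msx1*, 32 for LOC107451427 and 0 for both. A further 410 nuclei had 1 molecule and 136 had 2. *Pt-hh* also appeared where the gene is not known as a marker. Rebuilt cluster 12, which had all 3 endoderm-like markers (median 7967 molecules per nucleus), showed *Pt-hh* in 26.8% of nuclei, or 11.7% after thinning. In that cluster 21 of 205 nuclei had at least 3 molecules. The *Pt-hh* level was 1.08 molecules per 10000 in cluster 12 and 4.33 in cluster 13, where 5 of 118 nuclei were hh nuclei. Across all late stage-5 nuclei the share with *Pt-hh* was 29.3%, or 21.5% after thinning.

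The levels at the edge of the rule differed gradually. The 61 nuclei with exactly 3 *Pt-hh* had 8.16 molecules of *Pt-otd* and 3.60 of Sox-13 per 10000, against 6.42 and 2.26 in the 111 nuclei with exactly 2 that met the rest of the rule. *Pt-wnt8* was at 4.59 inside and 2.63 outside the rule, while *Pt-lab-A* was at 2.12 inside and 3.93 outside.

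Of 6020 genes with at least 100 molecules over both groups and at least 0.3 molecules per 10000 in the higher one, 43 were at least 2-fold higher in hh nuclei (0.714%) and 155 at least 2-fold lower (2.57%). The median level ratio over all genes was 1.01. Ranked by ratio, transcription factors of the head and Sox genes led the higher genes. Of the 43 higher genes, 19 had their highest level in rebuilt cluster 8, described below, and 10 each in clusters 3 and 10. *Pt-otd* (LOC107457189), an orthodenticle homeobox gene of the head, had 18.4 molecules per 10000 in hh nuclei and 1.12 in nuclei with 0 *Pt-hh* (1.07 to 1.17), a ratio of 16.4 (15.6 to 17.2). It was detected in 89.9% of hh nuclei and 15.5% of the others, or 82.9% and 10.2% after thinning, and in 11.7% of cluster 12. A median hh nucleus held 9 *Pt-otd* molecules and the highest held 50.

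Among genes that passed the filter, the largest ratio was that of the Sox factor Sox-13 (LOC107438641). Sox-13 had 10.3 molecules per 10000 in hh nuclei and 0.505 in the others (ratio 20.4). It was detected in 73.3% and 11.6% of nuclei. *Pt-tll* (LOC107444665), an orphan nuclear receptor gene that patterns the head in *Drosophila*, was at 2.32 and 0.128 (ratio 18.1). SOX-8 (LOC107444744) was at 3.96 and 0.219 (ratio 18.1, interval 16.2 to 20.1), and in 45.6% and 5.37% of nuclei. These 4 genes make up the peripheral ectoderm-like marker list, all of whose 4 members were at least 2-fold higher. The marker lists follow markers that the study chose on these same nuclei, so their direction is no independent evidence. At least 1 of the 4 was detected in all but 45 hh nuclei, and all 4 in 191 (23.5%, 20.6% to 26.6%). Among nuclei with 0 *Pt-hh*, 2472 had none of the 4 and 8 had all (0.235%, 0.101% to 0.462%).

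**Figure D1:**
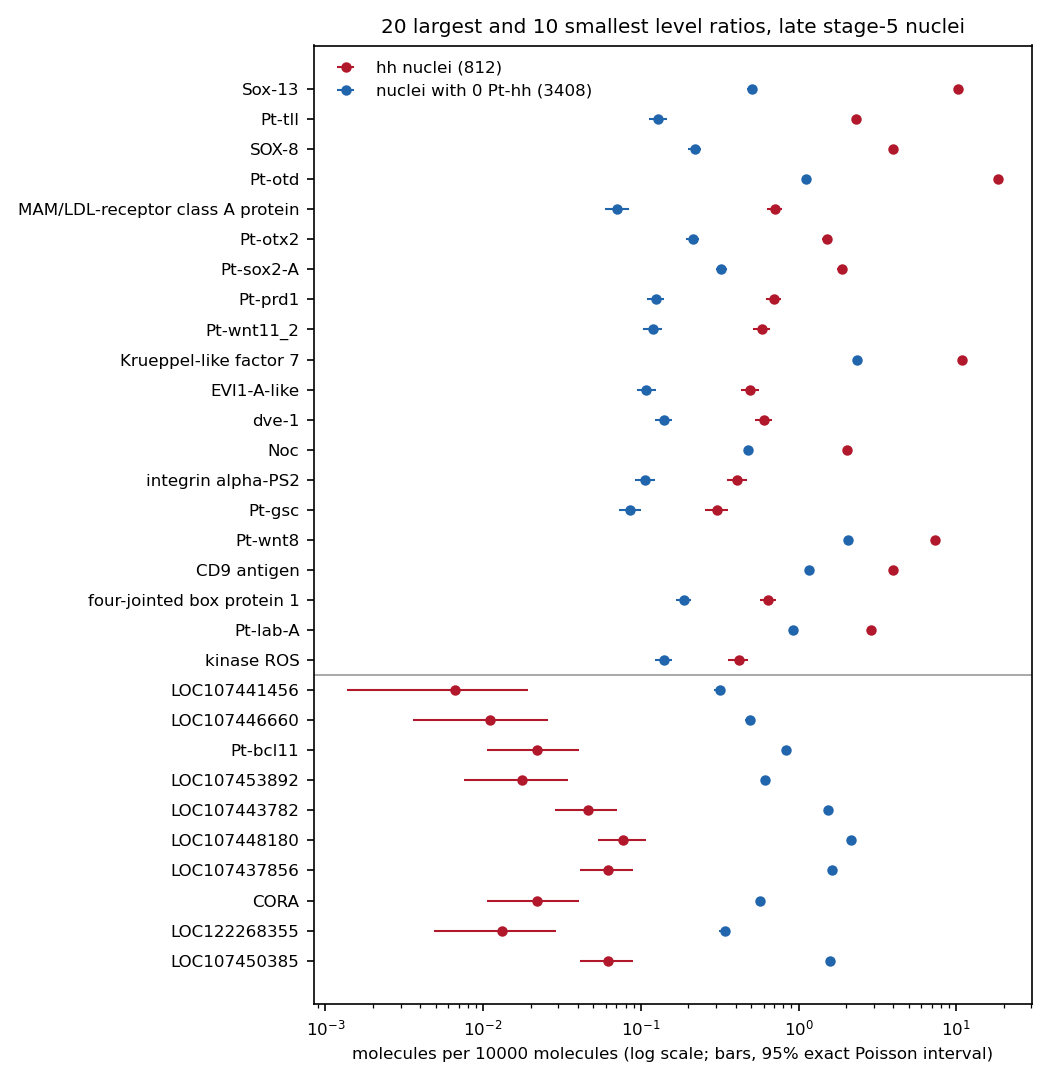
Levels of the 20 genes with the largest and the 10 with the smallest ratio among genes that passed the filter. Hh nuclei are red and nuclei with 0 *Pt-hh* blue, as molecules per 10000 on a log axis, with exact Poisson 95% intervals. Sox-13, *Pt-tll*, SOX-8 and *Pt-otd* stand furthest apart at the top, with *Pt-otd* at 18.4 against 1.12. Of the 10 at the bottom, 4 had ratios above 1 without clusters 12, 13 and 14 in the comparison.

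Other head regulators followed. *Pt-otx2*, a second *otx* gene, was at 1.51 in hh nuclei and 0.213 in nuclei with 0 *Pt-hh* (ratio 7.11), and *Pt-prd1*, a paired-type homeobox gene, at 0.694 and 0.124 (ratio 5.59). Of 11 listed head regulators that passed the filter, 8 were at least 2-fold higher and 2 at least 2-fold lower, with a median ratio of 3.13. Against the matched nuclei described below these counts were 6 and 2. The homeobox gene *Pt-BarH1* was at 16.2 and 5.97 (ratio 2.70), and the zinc finger gene *Pt-opa* at 9.31 and 4.17 (ratio 2.23), but against the matched nuclei their ratios were 1.92 and 1.68, both under 2-fold. The 2 lower ones were the T-box genes *Pt-h15-1* (2.95 and 5.97, ratio 0.494) and *Pt-tbx20-A* (0.205 and 0.483, ratio 0.424). *Pt-pax6*, an eye and brain gene in many animals, had 52 molecules in hh nuclei and 10 in the others, too few for the filter. The hh nuclei held 4537661 molecules in all and the others 18618026, so the *Pt-pax6* level was higher in hh nuclei.

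Among other transcription factors, Krueppel-like factor 7 was high in absolute terms, at 10.8 in hh nuclei and 2.34 in the others (ratio 4.63), and after thinning was found in 66.7% and 30.3% of nuclei. Of 5 Sox genes tested, 3 were at least 2-fold higher, including *Pt-sox2-A* (1.88 and 0.324, ratio 5.82), and *Pt-soxN*, a neuroectoderm gene in *Drosophila*, was lower (0.703 and 1.62, ratio 0.435). The Hox gene *Pt-lab-A*, which marks the front of the Hox domain, was at 2.88 and 0.920 (ratio 3.13), whereas *Pt-ftz* was at 0.0904 and 1.47 (ratio 0.0613). The zinc finger factor Noc was at 2.03 and 0.479 (ratio 4.24), and the homeobox factor dve-1 at 0.602 and 0.140 (ratio 4.29).

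Several higher genes belonged to the pMES-like marker list, of which 3 of 4 tested members were at least 2-fold higher. Integrin alpha-PS2, a receptor for the extracellular matrix, was at 0.410 in hh nuclei and 0.106 in nuclei with 0 *Pt-hh* (ratio 3.85), and *Pt-FGFRa*, an FGF receptor gene, at 2.29 and 1.04 (ratio 2.21). The homeobox gene *Pt-gsc*, which is not in that list, was at 0.304 and 0.0859 (ratio 3.54). The mesoderm regulator *Pt-twi* had 66 molecules in hh nuclei and 113 in the others, levels of 0.145 and 0.0607 that the filter left out. It was detected in 40 hh nuclei (4.93%), 31 of which also had *Pt-otd*, and in 2.02% of nuclei with 0 *Pt-hh*. The pMES-like genes were concentrated in the hh nuclei of cluster 8, described further on. *Pt-FGFRa* was at 10.1 in those nuclei and 1.94 in the hh nuclei of cluster 10. In the hh nuclei of cluster 3 (0.398) and of the other clusters (0.502) it lay below its level in nuclei with 0 *Pt-hh*.

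Components of the Hedgehog pathway itself differed in direction. The receptor gene *Pt-ptc* was at 2.54 molecules per 10000 in hh nuclei (2.39 to 2.69) and 1.58 in nuclei with 0 *Pt-hh* (1.53 to 1.64), a ratio of 1.60. *Smoothened*, which encodes the transducer that Patched holds back, was at 2.71 and 1.55 (ratio 1.75). *Pt-ci*, the gene of the responding transcription factor, was at 3.38 and 7.77 (ratio 0.434, interval 0.412 to 0.458), and was detected in 60.6% and 84.0% of nuclei. *Pt-gas1*, whose vertebrate counterpart is a Hedgehog co-receptor, was at 0.0309 and 0.404 (ratio 0.0764). Thus 2 of the 4 pathway genes tested were at least 2-fold lower, and 2 lay between. Against the matched nuclei described below, 3 pathway genes passed the filter, of which 1 was lower (*Pt-ci*, ratio 0.426) and 2 lay between (*Pt-ptc*, 1.28, and *smoothened*, 1.54). *Pt-gas1*, at 0.292 in the matched nuclei, did not pass there.

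Ligand genes of other pathways were also among the higher genes. *Pt-wnt8* was at 7.32 in hh nuclei and 2.07 in the others (ratio 3.53), and *Pt-wnt11_2* at 0.586 and 0.119 (ratio 4.94). *Pt-wnt11_2* was found in 4.37% of nuclei with 0 *Pt-hh*, a share no higher than the 5.37% in cluster 12. Of 7 Wnt pathway genes tested, 3 were at least 2-fold higher, the third being the intracellular Wnt antagonist gene *Pt-naked cuticle* (0.725 and 0.251), and 2 were lower, the Wnt receptor gene *Pt-fz* (0.430 and 1.25) and that of the metalloprotease TIKI2 (0.377 and 0.915). *Pt-wnt5* was at 7.30 and 7.58, a ratio of 0.963.

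Of 8 Notch pathway genes, 2 ligand genes were at least 2-fold higher. *Pt-Delta2* was at 2.82 in hh nuclei and 1.13 in nuclei with 0 *Pt-hh* (ratio 2.49), and jagged-1 at 3.35 and 1.15 (ratio 2.90). The other Delta gene, *Pt-Delta*, was at 0.705 and 2.01 (ratio 0.351), and the receptor gene *Pt-Notch* at 12.3 and 18.6 (ratio 0.663). In the BMP list 0 of 6 genes were higher and 2 lower, one of them the antagonist gene *Pt-sog* (1.66 and 5.48, ratio 0.302). The BMP ligand gene *Pt-dpp* was at 5.13 and 6.36, a ratio of 0.807. In the FGF and EGF list 1 of 8 was higher and 3 lower, among them the EGF protease gene *Pt-rhomboid* (0.379 and 2.16, ratio 0.175). Over all genes tested 0.714% were higher and 2.57% lower. Against the matched nuclei described below, 3 Notch pathway genes were higher and 1 lower. In the FGF and EGF list 1 was higher and 2 lower there, and the Wnt and BMP counts were unchanged.

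The genes lower in hh nuclei were of several kinds. Of the 155, 84 had their highest level in the endoderm-like cluster 12 and 26 in cluster 14, as did 7 and 2 of the 10 with the smallest ratios. Without the nuclei of clusters 12, 13 and 14 in the comparison, an alternative chosen after the data were seen, 3 of these 10 were still at least 2-fold lower and 4 had ratios above 1. The rule removed nuclei with *Pt-msx1*, a gene of the disc centre, and nuclei rich in LOC107451427 from the hh nuclei alone. Of the 3408 nuclei with 0 *Pt-hh*, 755 (22.2%) had *Pt-msx1* and 235 (6.90%) had more than 4 LOC107451427 molecules. The hh nuclei were therefore also set against the 2428 nuclei that had 0 *Pt-hh*, 0 *Pt-msx1* and at most 4 LOC107451427. In this matched comparison 51 of 5924 genes were at least 2-fold higher (0.861%) and 41 at least 2-fold lower (0.692%). The 2 comparisons shared 40 higher genes (93.0% of the first list and 78.4% of the matched list) and 36 lower genes (23.2% and 87.8%).

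Genes of the middle of the disc were lower in both comparisons. *Pt-sp6-9*, a zinc finger gene known from limb development, was at 0.974 in hh nuclei and 7.85 in nuclei with 0 *Pt-hh* (ratio 0.124, interval 0.113 to 0.136), and at 7.94 in the matched nuclei. It was found in 12.8% of hh nuclei and 61.9% of nuclei with 0 *Pt-hh*. *Pt-bcl11*, a zinc finger gene, had 10 molecules in all hh nuclei and 1552 in the others, a ratio of 0.0264, or 0.0350 against matched nuclei. *Pt-shifted*, whose *Drosophila* counterpart binds Hedgehog outside the cell, was at 0.335 and 2.51 (ratio 0.133). All 4 intermediate-like markers were at least 2-fold lower in both comparisons, with a median ratio of 0.154, and so were the 3 cMES-like (central mesoderm) markers. Of the central-like markers, 3 of 3 tested were at least 2-fold lower against nuclei with 0 *Pt-hh*, but 1 of 2 against the matched nuclei. That one was *Pt-AP2-A*, at 0.994 in hh nuclei, 4.73 in nuclei with 0 *Pt-hh* (ratio 0.210) and 3.91 in the matched nuclei (ratio 0.254). *Pt-prd2* had ratios of 0.369 and 0.515 in the 2 comparisons. The paper lists *Pt-prd2* for the pMES as well as the centre. In the hh nuclei of cluster 8, described below, *Pt-prd2* was at 4.75, against 0.0740 in those of cluster 3 and 0.685 in those of cluster 10. Of genes picked after their values were seen, the limb gene *Pt-dll* was at 0.928 and 4.53 (ratio 0.205) and the homeobox gene *Pt-mirr4* at 0.353 and 2.59 (ratio 0.136).

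Within nuclei that met the other 2 conditions, the genes varied with the *Pt-hh* count. *Pt-otd* was at 1.58 in the nuclei with 0 *Pt-hh*, 3.25 with 1, 6.42 with 2, 9.56 with 3 to 4, 15.0 with 5 to 9, 18.3 with 10 to 19, 21.3 with 20 to 39 and 24.9 with 40 or more. Sox-13 showed the same order, with 0.621 at 0 molecules, 3.77 at 3 to 4 and 14.5 at 40 or more. *Pt-sp6-9* ran the other way, with 7.94 at 0, 3.64 at 3 to 4 and 0.341 at 40 or more. *Pt-h15-1* was highest in nuclei with 1 or 2 *Pt-hh* (9.79 and 9.64), and was at 0.757 at 40 or more. *Pt-BarH1* lay between 15.3 and 17.3 in every bin of 2 or more. *Pt-ci* was at 7.92 in nuclei with 0 and 2.37 at 40 or more, while *Pt-ptc* was at 1.98 with 0, at its highest of 3.36 with 2, and at 2.23 at 40 or more. The median depth of these bins was 5080 to 6024 molecules, and the count that sorts them also depends on depth.

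**Figure D2:**
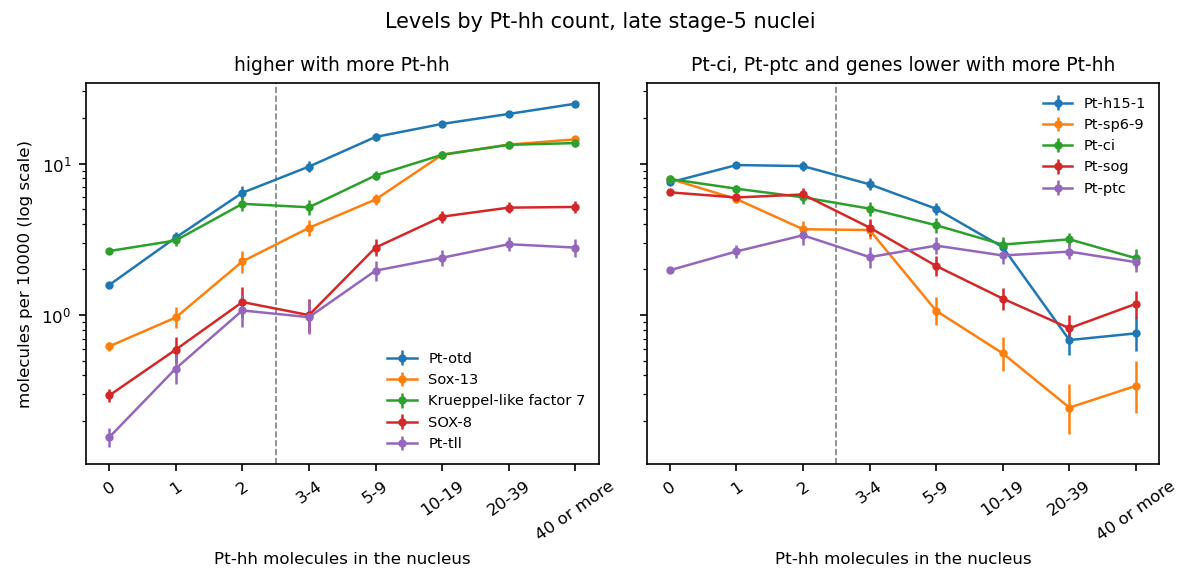
Levels per 10000 molecules (log axis, with exact Poisson 95% intervals) by the number of *Pt-hh* molecules in the nucleus, for nuclei with 0 *Pt-msx1* and at most 4 LOC107451427; nuclei right of the dashed line are hh nuclei. *Pt-otd* was at 1.58 in the lowest bin and 24.9 in the highest, and *Pt-sp6-9* at 7.94 and 0.341.

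Over all 4820 nuclei, the genes whose level per nucleus (natural log of 1 plus molecules per 10000) was most like that of *Pt-hh*, of 11098 compared, were *Pt-otd* (Pearson r = 0.707), Sox-13 (0.635), *Pt-tll* (0.531), SOX-8 (0.485) and Krueppel-like factor 7 (0.409). They were followed by *Pt-znf423* (0.349), *Pt-sox2-A* (0.345), jagged-1 (0.331), Noc (0.331) and *Pt-Delta2* (0.311). The least alike were *Pt-sp6-9* (-0.356), LOC107442927 (-0.301) and *Pt-ci* (-0.292). These values describe 1 library whose nuclei share its depth. Among the 812 hh nuclei alone *Pt-otd* was at 0.399, and *Pt-h15-1* was the least alike at -0.355. Read from the other gene, 76.3% of the 1023 nuclei with at least 3 *Pt-otd* molecules had *Pt-hh* (73.6% to 78.9%), as did 86.0% of 207 with at least 3 *Pt-tll*, 43.9% of 1683 with at least 3 *Pt-BarH1* and 13.5% of 1653 with at least 3 *Pt-sp6-9*.

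Clustering without the 3 rule genes placed most hh nuclei in a few of 15 clusters. Cluster 3 held 309 (38.1%), cluster 10 held 212 (26.1%) and cluster 8 held 128 (15.8%), together 649 (79.9%). These clusters held 168 of the 3408 nuclei with 0 *Pt-hh* (4.93%). The hh nuclei made up 78.6% of cluster 3, 89.1% of cluster 10 and 44.1% of cluster 8. The other 163 were spread over 10 clusters, and clusters 12 and 14 had 0. Of these 163, 39 fell in cluster 9, the cluster with the lowest median depth (3904.5 molecules). The paper left a low-count late stage-5 cluster out of its later analyses as a possible pseudocluster. No cluster was left out here for low counts. SOX-8, *Pt-otd*, *Pt-prd1* and Sox-13 were among the leading genes of cluster 3, with *Pt-lab-A*, and EMX2, *Pt-tll*, *Pt-otx2* and Sox-13 among those of cluster 10. Both had the 4 peripheral ectoderm-like markers. Cluster 8 was led by *Pt-twi*, the Sox-14-like gene LOC107449287 and *Pt-gsc*, and was pMES-like. Its hh nuclei also held the peripheral ectoderm-like markers: *Pt-otd* in 79.7%, *Pt-tll* in 62.5%, Sox-13 in 55.5% and SOX-8 in 16.4%. The following levels describe groups that clustering drew from the same counts.

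**Figure D3:**
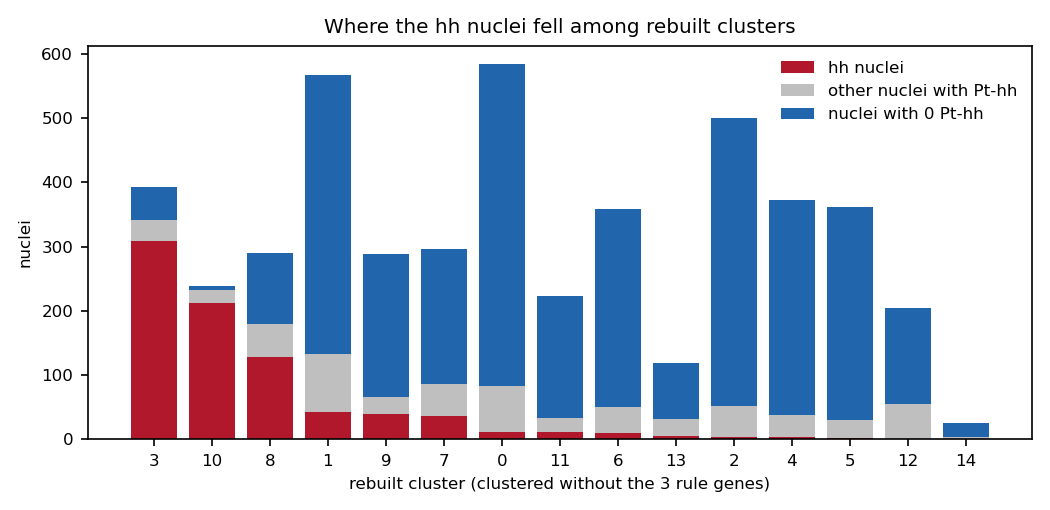
Number of nuclei in each of the 15 rebuilt clusters, split into hh nuclei (red), other nuclei with *Pt-hh* (grey) and nuclei with 0 *Pt-hh* (blue). Clusters 3, 10 and 8 held 309, 212 and 128 hh nuclei.

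*Pt-hh* was at 45.3 molecules per 10000 in the hh nuclei of cluster 3, 47.5 in cluster 10, 33.9 in cluster 8 and 18.1 in the other clusters. The sets of clusters 3 and 10 differed in other genes. Cluster 3 had *Pt-lab-A* at 5.13, *Pt-BarH1* at 22.4 and *Pt-prd1* at 1.21, against 0.711, 12.3 and 0.399 in cluster 10. Cluster 10 had *Pt-tll* at 4.21, *Pt-otx2* at 3.39, *Pt-wnt8* at 14.4 and *Pt-wnt5* at 13.5, against 1.79, 0.632, 1.52 and 6.84 in cluster 3. *Pt-otd* was at 24.1 in cluster 3 and 21.5 in cluster 10.

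The hh nuclei of cluster 8 had the pMES-like markers *Pt-twi* at 0.926 and *Pt-FGFRa* at 10.1, and the gap gene *Pt-hb* at 21.4. The hh nuclei of cluster 10 had these at 0.0173, 1.94 and 6.35. In the nuclei of cluster 8 with 0 *Pt-hh* they were at 1.68, 13.4 and 24.6. The hh nuclei of cluster 8 were low in SOX-8 (0.593), *Pt-sox2-A* (0.174) and *Pt-BarH1* (1.53). *Pt-ptc* varied little among the sets, from 2.06 in cluster 8 to 2.65 in cluster 3. The hh nuclei outside these 3 clusters had the highest *Pt-h15-1* (9.19), *Pt-sog* (4.66) and *Pt-ci* (5.32), and the lowest *Pt-tll* (0.374).

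**Figure D4:**
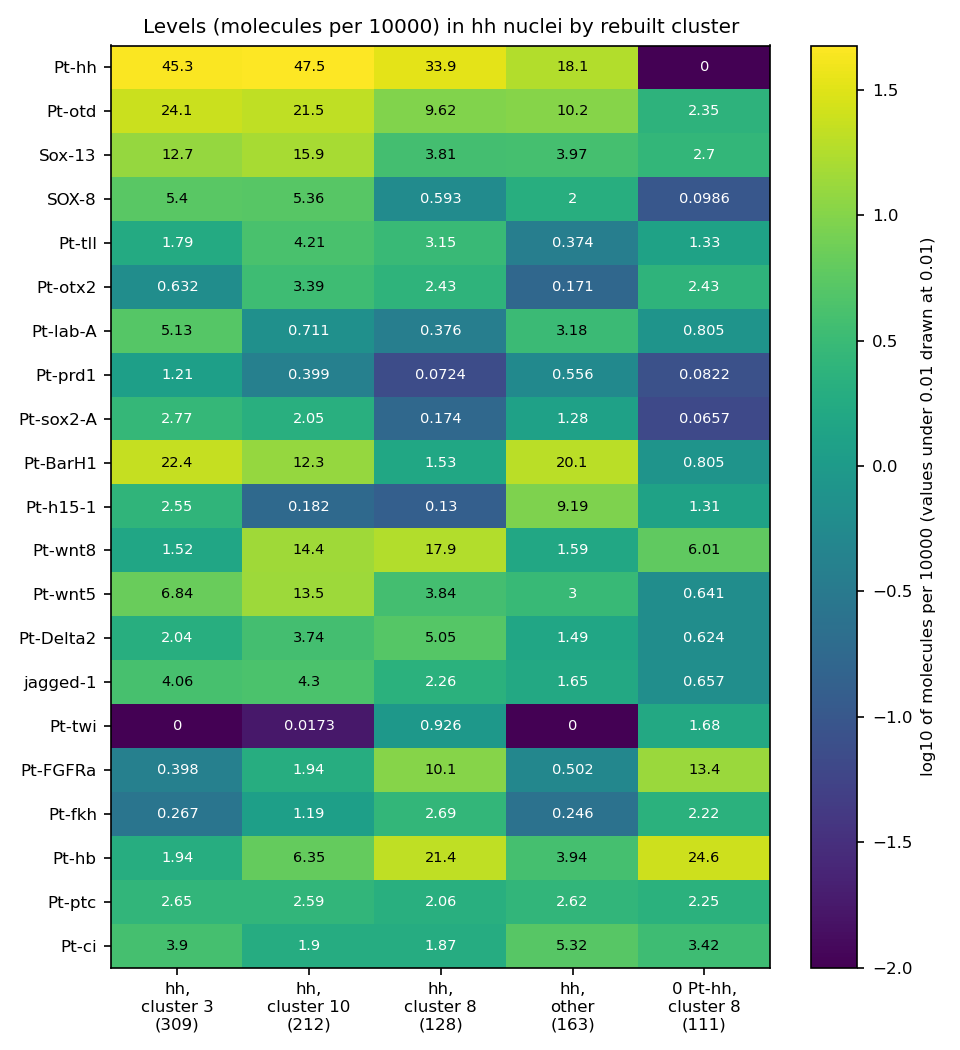
Levels (molecules per 10000, printed in each cell; colour on a log10 scale) of 21 genes in the hh nuclei of clusters 3, 10 and 8, in those of all other clusters, and in the nuclei of cluster 8 with 0 *Pt-hh*. Among hh nuclei *Pt-otd* was highest in clusters 3 and 10, and *Pt-twi*, *Pt-FGFRa* and *Pt-hb* in cluster 8.

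Cluster 8 held both kinds of nuclei in similar number, 128 hh nuclei (median 5318 molecules) and 111 with 0 *Pt-hh* (5392). Of 3152 genes that passed the filter there, 32 were at least 2-fold higher in its hh nuclei (1.02%) and 18 at least 2-fold lower (0.571%). *Pt-Delta2* was at 5.05 in its hh nuclei and 0.624 in its nuclei with 0 *Pt-hh* (ratio 8.09, interval 5.78 to 11.6), and was found in 67.2% and 21.6% of them. *Pt-wnt5* was at 3.84 and 0.641 (ratio 5.98), *Pt-otd* at 9.62 and 2.35 and jagged-1 at 2.26 and 0.657 (ratio 3.43). *Pt-wnt8* (17.9 and 6.01) and the peripheral ectoderm-like marker *Pt-tll* (3.15 and 1.33) were also at least 2-fold higher. Of the pMES-like list, *Pt-twi* was at 0.926 and 1.68 (ratio 0.553) and *Pt-FGFRa* at 10.1 and 13.4 (ratio 0.757). The other list members lay above 1, with ratios of 1.21 (*Pt-fkh*), 1.14 (*Pt-ets1*) and 1.08 (integrin alpha-PS2). Outside that list, *Pt-gsc* was at 1.51 and 2.27 (ratio 0.664) and *Pt-FGFRb*, another FGF receptor gene, at 14.9 and 22.4 (ratio 0.666). None of these genes reached a 2-fold difference. *Pt-magu* was at least 2-fold lower (1.51 and 4.65, ratio 0.324), as was *Pt-opa* (3.08 and 6.75).

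The same rule was applied to the stage-7 nuclei, a library of other embryos that did not choose these genes. The paper lists *Pt-hh* as a gene of the periphery at late stage 5 and of stripes at stage 7. The rule may therefore pick nuclei of unlike body regions at the 2 stages, which was not tested. At stage 7 the rule found 1160 of 6239 nuclei (18.6%), against all 3463 with 0 *Pt-hh*. No matched comparison was made at this stage. There *Pt-msx1* left out 420 of the 1596 nuclei with at least 3 *Pt-hh*, and the level of *Pt-hh* was 14.6 molecules per 10000 (median 12 molecules in nuclei of median depth 10400). Of 5535 genes tested at stage 7, 58 were at least 2-fold higher (1.05%) and 212 at least 2-fold lower (3.83%). Of the 43 genes higher at late stage 5, 28 passed the filter at stage 7: 7 were at least 2-fold higher, 3 at least 2-fold lower and 18 between. Their median ratio was 1.49 at stage 7, beside 1.03 over all genes.

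*Pt-wnt11_2* had the largest stage-7 ratio of the 7, with 1.55 molecules per 10000 in stage-7 hh nuclei and 0.0876 in the others (17.7). *Pt-gsc* was at 0.873 and 0.102 (8.54), *Pt-otd* at 2.48 and 0.491 (5.05) and SOX-8 at 0.380 and 0.111 (3.43). The 3 others were *Pt-NDNF*, *Pt-wnt8* (2.47) and Noc (2.02). Sox-13, the leading gene past the filter at late stage 5, was at 2.49 and 1.25, a ratio just under the limit. *Pt-tll* was scarce, with 0.114 in stage-7 hh nuclei and 0.256 in the others, and did not pass the filter. *Pt-BarH1* was at 0.496 and 0.638, a ratio of 0.778. In the Hedgehog pathway, *Pt-ptc* was at 2.71 and 1.30 (2.08) and *Pt-ci* at 1.84 and 3.16 (0.582). Each stage was 1 library, and the difference between stages was not tested.

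**Figure D5:**
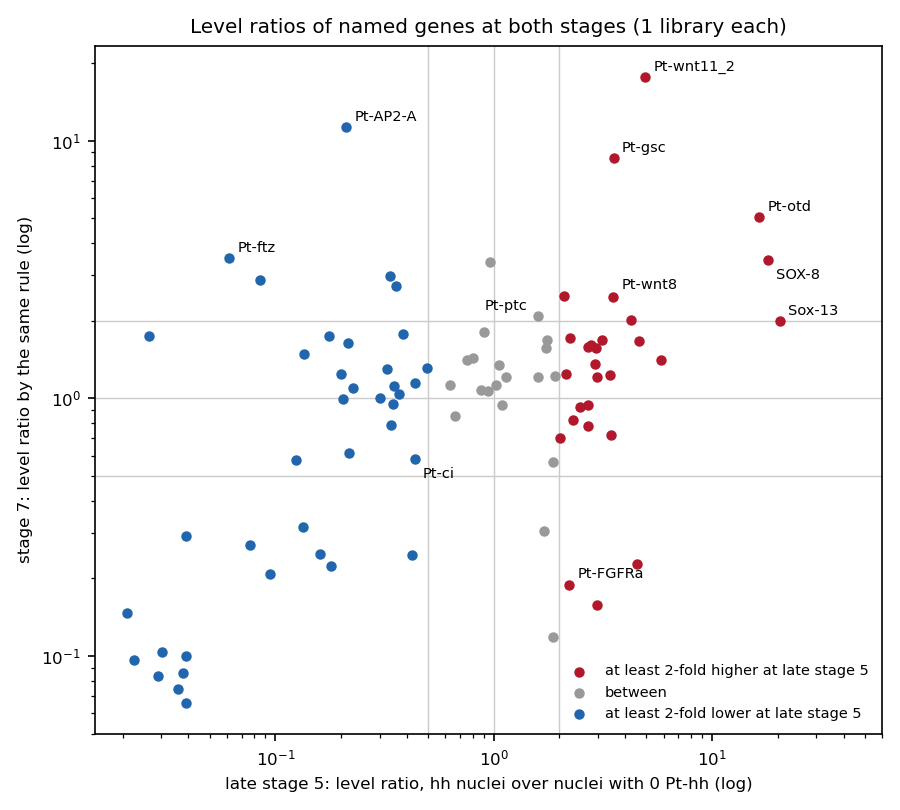
Level ratio (hh nuclei over nuclei with 0 *Pt-hh*) at late stage 5 (x) and stage 7 (y), both log axes, for 87 named genes that passed the filter at both stages, coloured by their late stage-5 ratio. *Pt-otd* (16.4 and 5.05) and SOX-8 (18.1 and 3.43) lie high at both stages, while *Pt-AP2-A* (0.210 and 11.3) and *Pt-FGFRa* (2.21 and 0.189) lie on opposite sides.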

How the data were processed

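Single-nucleus libraries were made on the BD Rhapsody system. Per the labels and the methods, the authors aligned reads with STAR 2.5.2b, counted exonic and intronic reads of nuclei as molecules, and filtered and clustered with Seurat 4.1.1. The deposited values are counts of molecules per gene and barcode. A filter rebuilt from the stated limits, over 1500 genes and under 15000 molecules, kept 4819 barcodes, all among the 4820 deposited. The late stage-5 table is mapped to no sample of the series.

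Here counts were summed over nuclei and divided by all molecules (numpy 2.4.6, scipy 1.17.1, pandas 2.3.3). Nuclei were reclustered with Seurat 5.3.0 in R 4.3.3 (2000 variable features without the 3 rule genes, 45 components, resolution 1.4). The scripts were tested on simulated data. Named were the 20 largest and 10 smallest ratios, the 10 genes most like *Pt-hh*, and listed genes. The members, lists and marker genes were chosen with earlier results of these data known. Gene names follow the study's supplementary tables, and other genes keep their identifiers. No sequences were used here.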

Additional observations from a re-analysis of the deposited data

Results flagged for a closer look

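Of the named genes, 8 were at least 2-fold different in opposite directions between hh nuclei and nuclei with 0 *Pt-hh* at the 2 stages. The paper lists *Pt-hh* at the periphery at late stage 5 and in stripes at stage 7. The 2 sets of hh nuclei may therefore come from unlike body regions. The EVI1-A-like zinc finger gene had a level ratio of 4.55 at late stage 5 and 0.227 at stage 7. The receptor tyrosine kinase gene ROS was at 2.98 and 0.158, and *Pt-FGFRa* at 2.21 and 0.189. Both were among the genes of the pMES-like cluster 8 at late stage 5. *Pt-AP2-A* was at 0.210 and 11.3, *Pt-RTP-B* at 0.0851 and 2.87, and the Hox gene *Pt-ftz* at 0.0613 and 3.49. The gene of a SAM pointed domain Ets factor was at 0.356 and 2.72, but at 0.634 at late stage 5 against the matched nuclei, where it was no longer 2-fold lower. That of a pro-epidermal growth factor was at 0.337 and 2.99. All stage-7 ratios here are against every stage-7 nucleus with 0 *Pt-hh*, without a matched comparison. Each stage was 1 library, and the difference between stages was not tested.

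Outside the nuclei described in the report, 32 late stage-5 barcodes that the authors' filter removed met the rule of the hh nuclei, as did 35 of 865 stage-7 cells.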

How the results depend on the processing

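The count of genes at least 2-fold lower in hh nuclei was 155 as reported, 41 against the matched nuclei, 59 with all nuclei of at least 3 *Pt-hh*, and 53 without the nuclei of clusters 12, 13 and 14 in the comparison, an alternative chosen after the data were seen. Without any filter on low levels 3201 genes were lower and 1299 higher, and at a fold of 3 the higher genes numbered 19. Under every other setting tried the higher genes numbered 37 to 55, and the lower ones, where not given above, 105 to 161. Without clusters 12, 13 and 14 the ratios of 6 named genes that had been at least 2-fold lower lay above 1. These were LOC107453892 (1.13), LOC107448180 (1.52), LOC122268355 (1.84), LOC107450385 (1.12) and the endoderm-like markers LOC107436131 (1.55) and LOC107443634 (1.51). The 3 clusters with most hh nuclei held 79.9% of them, but 92.0% at a resolution of 0.5 and 87.9% with the rule genes kept. The median share of hh nuclei in which the 20 highest-ranked genes were detected was 34.6%, and 22.1% after thinning to 2000 molecules. The number of genes also higher at stage 7 was 7 under each setting tried. No paired analysis was possible because the late stage-5 nuclei were 1 library. With 52 molecules in hh nuclei and 10 in nuclei with 0 *Pt-hh*, *Pt-pax6* was too rare at this depth for the filter.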

Other observations

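Of 3152 genes that passed the filter in the pMES-like cluster 8, 32 were at least 2-fold higher in its 128 hh nuclei than in its 111 nuclei with 0 *Pt-hh* (1.02%) and 18 at least 2-fold lower (0.571%). The examples below were picked from these after their values were seen, in 1 library and with no test, and stand for no gene group. The gene of the atypical cadherin dachsous was at 5.83 molecules per 10000 in hh nuclei and 2.43 in the others (ratio 2.40, counting interval 1.98 to 2.92). That of laminin subunit alpha-1 (LOC107449971), a basement membrane protein, was at 1.32 and 0.362 (ratio 3.64), and *Pt-laminin-alpha-1* at 1.64 and 0.740 (ratio 2.21). The gene of the guidance protein semaphorin-5A was at 1.64 and 0.690 (ratio 2.37) and that of the adhesion protein teneurin-m at 2.43 and 1.13 (ratio 2.14). The polarity gene partitioning defective 3 homolog was at 2.58 and 1.28 (ratio 2.01). The adhesion receptor gene integrin alpha-PS2 was at 2.11 and 1.96 (ratio 1.08). At least 2-fold lower in the hh nuclei was the gene of neurotactin, an adhesion protein in *Drosophila* (3.57 and 7.89, ratio 0.453). So were those of the water channel aquaporin-9 (1.53 and 4.42, ratio 0.347) and the actin bundling protein *Pt-fascin* (3.11 and 6.24, ratio 0.498). In the hh nuclei of clusters 3 and 10, dachsous was higher than in those of cluster 8 (17.2 and 15.8), as was *Pt-laminin-alpha-1* (4.69 and 2.10). LOC107449971 (0.302 and 0.771) and semaphorin-5A (0.592 and 1.54) were lower there. Teneurin-m (1.35 and 2.56) and partitioning defective 3 homolog (2.20 and 2.90) were lower in cluster 3 and higher in cluster 10.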
